A study of Mus musculus with 3 samples.

Results

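The genes described here encode 9 transcription factors that set up and maintain the macrophage lineage: Spi1 (PU.1), the C/EBP genes Cebpa, Cebpb and Cebpd, Runx1, Maf (c-MAF), the related genes Mitf and Tfec, and Bhlhe40. Their rows were found by gene symbol, with the GENCODE M21 annotation of the mouse genome, build mm10. All 9 symbols were found among the 55536 annotated genes of the tables, and the 9 genes have 35 of the 141862 annotated transcripts. The libraries form 1 group of 3, biological replicates 1, 2 and 3, of bone-marrow-derived macrophages from C57BL/6J mice, exposed for 120 min to lipid A at 100 ng/ml. Lipid A is the membrane anchor of bacterial lipopolysaccharide and activates the receptor TLR4. Only RNA of the cytosolic fraction was sequenced, from 1 µg of total RNA after ribosomal RNA depletion, with a size range of 250 to 400 bp. All 3 libraries share strain, treatment, time and donor identifier. No genetic change, sex or age is given in the labels. With no untreated cells and no other time or fraction, the values below are levels after lipid A and not changes caused by it. The labels do not say that the replicates came from separate animals, so SDs and p-values measure how much these samples differ, and that difference may be technical.

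A macrophage arises from a bone marrow progenitor when a small set of DNA-binding proteins opens and occupies the enhancers of myeloid genes. PU.1, an ETS protein, is the pioneer of that set and needs partners: RUNX1 acts early, C/EBP proteins bind beside PU.1 at myeloid enhancers, and c-MAF helps to keep mature macrophages out of the cell cycle. MITF and TFEC, which pair with each other and with TFE3 and TFEB, bind E-boxes in genes of lysosomes and of osteoclasts, while BHLHE40 is an E-box repressor that supports inflammatory and proliferating macrophages. In macrophages Cebpb and Cebpd are also known as genes that inflammatory stimuli induce.

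The libraries differed in depth and composition. Replicates 1, 2 and 3 held 31152786, 114031592 and 59693298 expected counts, which are read counts assigned by a model and need not be whole. At these depths a count of 0 allows up to 0.0963, 0.0263 and 0.0503 CPM (counts scaled to the library total), counting error only. Replicate 2 stood apart: the nuclear RNA Malat1 was at 178 TPM there against 741 and 812 TPM in replicates 1 and 3, and mitochondrial genes took 0.376% of TPM against 1.80% and 1.41%. TPM is a level per length, scaled so that its sum is the same in every library, and allows genes to be compared. All 12 macrophage markers were detected, from Itgam at 19.1 ± 3.23 TPM to Lyz2 at 4039 ± 316 TPM (SD, n = 3 each). Of 51 markers of other cell types, 4 were detected. The osteoclast marker Acp5, at 19.5 ± 6.2 TPM, was near Itgam, and the neutrophil gene S100a8 was at 8.32 ± 1.26 TPM (SD, n = 3 each). The B-cell gene Ighm was at 2.45 ± 0.346 TPM and the neutrophil gene Ngp at 2.21 ± 0.495 TPM (SD, n = 3 each). Another 8 had no counts in any library, among them the T-cell gene Cd3d and the neutrophil gene Ly6g.

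All 9 factors were present in every library, over a wide range of levels. Spi1 and Tfec were the highest, Maf followed, Mitf, Runx1 and Cebpb lay close together, and Bhlhe40, Cebpa and Cebpd were the lowest. Each was at a TPM of at least 1 in all 3 libraries, the level at which a gene is called detected here. That held for 37.6% of 22015 nuclear protein-coding genes, and for 8699 genes in all. The median of the 9 mean levels was 15.07 TPM, beside 6.79 TPM over the detected genes. Bhlhe40, Cebpa and Cebpd lay below the median of the detected genes, at percentiles 46.5, 36.3 and 12.9. In bulk RNA, fewer cells that express a gene and less RNA per cell cannot be told apart, and a cytosolic level is neither a protein level nor the total RNA of the cell.

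**Figure D1:**
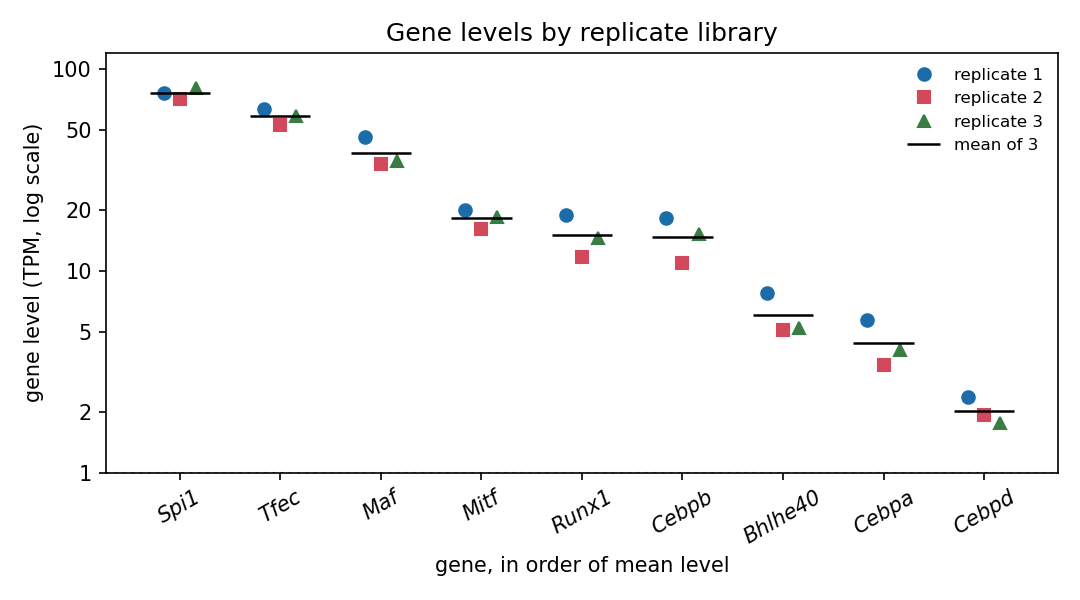
Level of each of the 9 genes in TPM (log axis) in each replicate library, with the mean of the 3 libraries as a line. The genes run from Spi1 at 75.9 TPM down to Cebpd at 2.02 TPM, and the points of Mitf, Runx1 and Cebpb lie in a common range.

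Spi1 encodes PU.1, and lies on chromosome 2 (91082390 to 91115756, plus strand). In replicates 1, 2 and 3 its level was 76.1, 71.2 and 80.3 TPM, or 75.9 ± 4.57 TPM (SD, n = 3). Spi1 thus stood at percentile 93.6 of the detected genes, with the highest library 1.13 times the lowest. Of 10 other ETS genes, 9 were detected and each mean was below that of Spi1. The highest were Ets2 at 19.95 ± 3.45 TPM, Etv6 at 14.1 ± 1.54 TPM and Elf1 at 11.96 ± 2.47 TPM (SD, n = 3 each). The 2 lowest were Ets1 at 1.70 ± 0.376 TPM and Spib, the closest relative of Spi1 and a regulator of B and plasmacytoid dendritic cells, at 0.210 ± 0.0800 TPM (SD, n = 3 each). Spic, the other close relative, which red pulp macrophages of the spleen need, was at 3.43, 2.08 and 3.72 TPM.

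Of Cebpa, Cebpb and Cebpd, Cebpb was the highest in every library. Cebpb (chromosome 2, 167688915 to 167690418, plus strand), the C/EBP factor of inflammatory activation, was at 18.2, 10.9 and 15.2 TPM, a mean of 14.8 ± 3.68 TPM (SD, n = 3). Cebpa (chromosome 7, 35119293 to 35121928, plus strand), which progenitors need to enter the myeloid lineage, was at 5.68, 3.40 and 4.05 TPM, a mean of 4.38 ± 1.17 TPM (SD, n = 3). Cebpd (chromosome 16, 15887286 to 15891031, plus strand), which amplifies TLR4 responses, was at 2.37, 1.92 and 1.76 TPM, a mean of 2.02 ± 0.316 TPM (SD, n = 3). Replicate 1 was the highest library for each of these genes. The ranges of the 3 genes did not overlap. Within a library Cebpb exceeded Cebpa 3.21, 3.21 and 3.74 times and Cebpd 7.70, 5.68 and 8.61 times, in TPM. On the log2(TPM + 1) scale, Cebpb minus Cebpa was 1.55 ± 0.12, Cebpb minus Cebpd was 2.36 ± 0.29 and Cebpd minus Cebpa was -0.82 ± 0.20 (SD, n = 3 each), each with the same sign in 3 of 3 libraries. With 3 libraries an exact sign-flip test, two-sided, cannot go below p = 0.25, so no ratio here can pass a threshold of 0.05. Of the 3 other genes of the family, Ddit3 (CHOP, induced by stress of the endoplasmic reticulum) was at 20.6, 15.3 and 13.8 TPM, above Cebpb in 2 of 3 libraries, with a mean of 16.6 ± 3.59 TPM, and Cebpg, a partner that lacks an activation domain, at 3.15 ± 0.637 TPM (SD, n = 3 each). Cebpe, the factor of granulocyte maturation, was at 0.0333 ± 0.00577 TPM (SD, n = 3) and was not detected.

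Runx1, the partner of CBFB, lies on chromosome 16 (92601466 to 92826149, minus strand). It was at 19.0, 11.7 and 14.5 TPM, on average 15.1 ± 3.67 TPM (SD, n = 3), with replicate 1 at 1.62 times replicate 2. Cbfb, the non-DNA-binding subunit that stabilises RUNX proteins on DNA, was at 14.8, 11.6 and 13.96 TPM. Runx1 minus Cbfb was 0.14 ± 0.18 on the log2(TPM + 1) scale (SD, n = 3), positive in 3 of 3 libraries but smaller than its SD. It was 0.033 without replicate 1, so its size rests on that library. The other RUNX genes were low: Runx2, the osteoblast factor, at 1.17 ± 0.196 TPM and Runx3, the factor of cytotoxic lymphocytes, at 0.130 ± 0.0300 TPM (SD, n = 3 each).

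Maf was the third highest of the 9. The gene (chromosome 8, 115682942 to 115707794, minus strand) was at 46.1, 33.9 and 35.0 TPM, a mean of 38.3 ± 6.71 TPM (SD, n = 3), with replicate 1 above the other two. The small MAF genes, which lack an activation domain and pair with NRF and BACH proteins, were each below Maf in every library: Maff at 24.1 ± 4.52 TPM, Mafk at 14.9 ± 1.16 TPM and Mafg at 7.95 ± 1.89 TPM (SD, n = 3 each). Gm15655, an antisense gene annotated across Maf on the other strand, was at 16.1, 13.5 and 18.6 TPM. The strand setting is not given in the sources used here, so reads of the pair may not be separated.

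Tfec was the higher of the 2 related genes Tfec and Mitf in every library. Tfec (chromosome 6, 16833373 to 16898441, minus strand), whose expression is largely limited to macrophages and osteoclasts, was at 63.6, 52.7 and 58.3 TPM, a mean of 58.2 ± 5.49 TPM (SD, n = 3). Mitf (chromosome 6, 97807052 to 98021349, plus strand), the factor of osteoclasts, mast cells and pigment cells, was at 20.1, 16.2 and 18.6 TPM, a mean of 18.3 ± 1.98 TPM (SD, n = 3). Replicate 1 was the highest and replicate 2 the lowest for both genes. The ratio of Tfec to Mitf was 3.17, 3.26 and 3.14 in TPM, and the difference of 1.62 ± 0.022 on the log2(TPM + 1) scale (SD, n = 3) had the smallest SD of the 6 pairs compared. Tfe3, a broadly expressed member of the family, was near Mitf at 19.8 ± 3.94 TPM, and Tfeb, a master gene of lysosome formation, was at 1.87 ± 0.803 TPM (SD, n = 3 each).

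Bhlhe40 and its relative Bhlhe41 had nearly equal levels. Bhlhe40 (chromosome 6, 108660629 to 108666925, plus strand) was at 7.73, 5.07 and 5.21 TPM, a mean of 6.00 ± 1.5 TPM (SD, n = 3). Bhlhe41 was at 6.84, 5.0 and 6.21 TPM. Their difference on the log2(TPM + 1) scale was -0.015 ± 0.19 (SD, n = 3), with Bhlhe40 higher in 2 of 3 libraries, and it was 0.086 without replicate 3. Max, the E-box binding partner of MYC, was the highest of the 4 other E-box genes listed, at 27.4 ± 4.73 TPM, and Usf2 and Usf1 were at 12.9 ± 1.37 TPM and 7.99 ± 0.356 TPM (SD, n = 3 each).

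**Figure D2:**
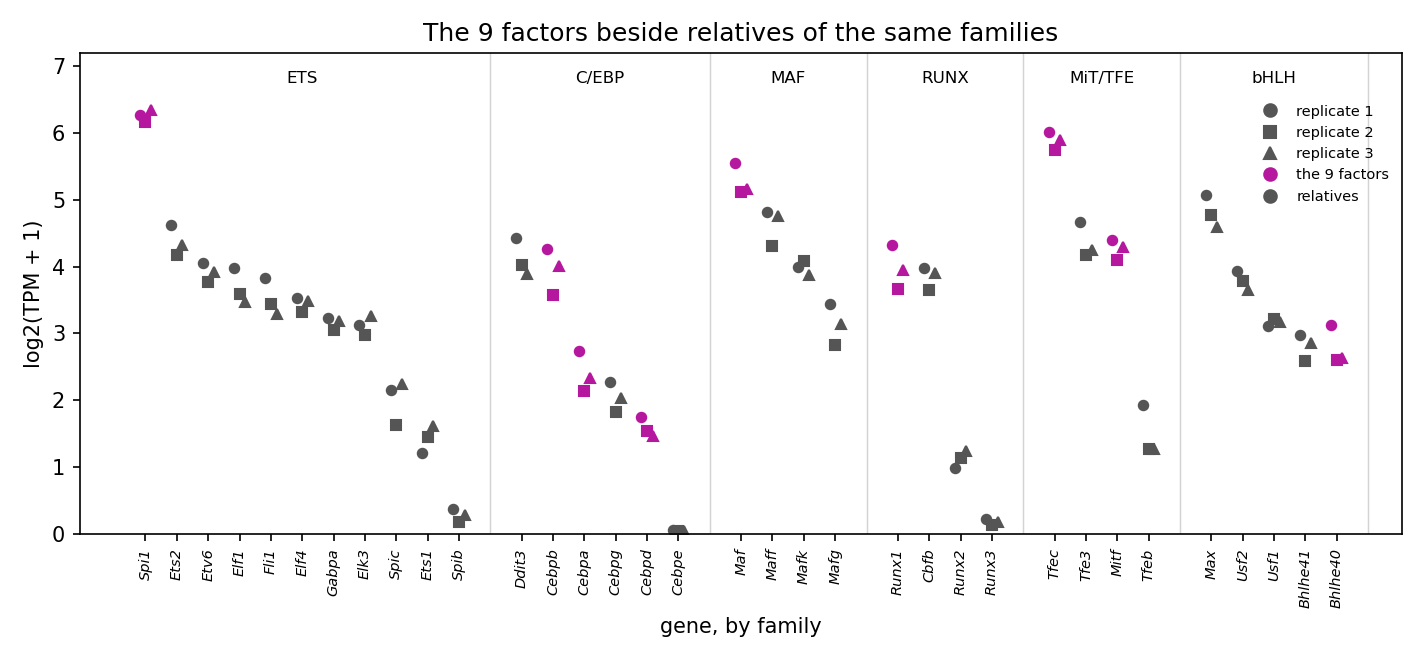
Levels as log2(TPM + 1) in each replicate for the 9 factors (purple) and for relatives of the same families (grey), ordered by mean level within a family. Spi1, Maf, Runx1 and Tfec head their families by mean level, whereas the mean of Cebpb lies below that of Ddit3, and Bhlhe40 and Bhlhe41 share the lowest place of their panel.

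Most neighbours in the order of levels were separated by more than their spread. Going down from Spi1, the ranges over the 3 libraries did not overlap between Spi1 and Tfec, Tfec and Maf, Maf and Mitf, Cebpb and Bhlhe40, or Cebpa and Cebpd. They overlapped between Mitf and Runx1, between Runx1 and Cebpb, and between Bhlhe40 and Cebpa. Mitf was above Runx1 in 3 of 3 libraries, with a mean ratio of 1.24 ± 0.16 (SD, n = 3). Runx1 was above Cebpb in 2 of 3, with a ratio of 1.02 ± 0.062 (SD, n = 3), so by these values Runx1 and Cebpb have no order beyond their spread. The order of the 9 means was the same with each replicate left out, replicate 2 included.

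A second deposited quantification of the same reads, a transcript table summed here per gene, gave the same order of means at lower values. There Spi1 was at 31.0 ± 6.81 TPM, Tfec at 23.4 ± 5.59, Maf at 15.04 ± 4.49, Mitf at 8.05 ± 1.67 and Runx1 at 7.36 ± 3.05 TPM (SD, n = 3 each). The lower end was Cebpb at 5.48 ± 1.89, Bhlhe40 at 2.39 ± 1.03, Cebpa at 1.69 ± 0.671 and Cebpd at 0.736 ± 0.232 TPM (SD, n = 3 each). By library, 2 pairs of neighbours differed from the first quantification. Runx1 was above Cebpb in 3 of 3 libraries, with a ratio of means of 1.34. Mitf was above Runx1 in 2 of 3, with a ratio of means of 1.09. The members shifted by a median of -1.33 on the log2 scale, within -1.45 to -1.03, beside -1.35 over 8668 detected genes. The shift of the members was therefore that of the tables as a whole. Cebpd lay below 1 TPM in that table, so 8 of the 9 were detected there.

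The replicate libraries differed by more than counting error for 8 of the 9 genes. The test was a Poisson dispersion test on counts scaled by TMM, which sets the libraries to a common composition, with Benjamini-Hochberg adjustment over the 14037 genes that averaged at least 10 counts. It called 62.1% of those genes, and 77.7% of the 7556 genes that averaged at least 500 counts, a depth that all 9 factors reach. A count of 8 of 9 is near what well-covered genes gave. The adjusted p was 1.7e-71 for Maf, 3.7e-75 for Runx1, 8.3e-34 for Spi1 and 7.1e-29 for Cebpb in this Poisson dispersion test. For Bhlhe40 it was 8.7e-16, for Cebpa 2.4e-15, for Mitf 6.8e-06 and for Cebpd 0.00028 in the same test. Tfec was the exception, with 173.3, 171.9 and 172.6 scaled CPM in replicates 1, 2 and 3 and an adjusted p of 0.89. The call was lost for Spi1 without replicate 1 (adjusted p = 0.072), for Mitf without replicate 2 (0.10) and without the count filter (0.056), and for Cebpd without replicate 3 (0.39), all by the Poisson dispersion test.

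The size of this spread was modest. The median of the 9 biological coefficients of variation was 0.128. These are edgeR's estimates of the relative SD beyond counting error, which are drawn toward those of genes of like abundance and so do not reach 0 for a gene with no such spread. It was 0.115 over the detected genes and 0.151 over all genes tested. Cebpa had the largest, 0.153, followed by Cebpb at 0.140, Bhlhe40 at 0.138 and Runx1 at 0.133. The smallest estimates were 0.0917 for Tfec, whose own scaled counts showed no spread beyond counting error, and 0.0939 for Mitf. In scaled CPM, Runx1 was at 131.9, 95.5 and 113.9 and Cebpb at 41.0, 29.2 and 36.9 in replicates 1, 2 and 3. Both were thus highest in replicate 1 and lowest in replicate 2. Spi1 went the other way, at 198.2, 232.2 and 237.8 scaled CPM, with replicate 1 the lowest. By TPM, which also divides by length, Spi1 was lowest in replicate 2. The length used for Spi1 was 1472, 1572 and 1556 bases in replicates 1, 2 and 3.

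**Figure D3:**
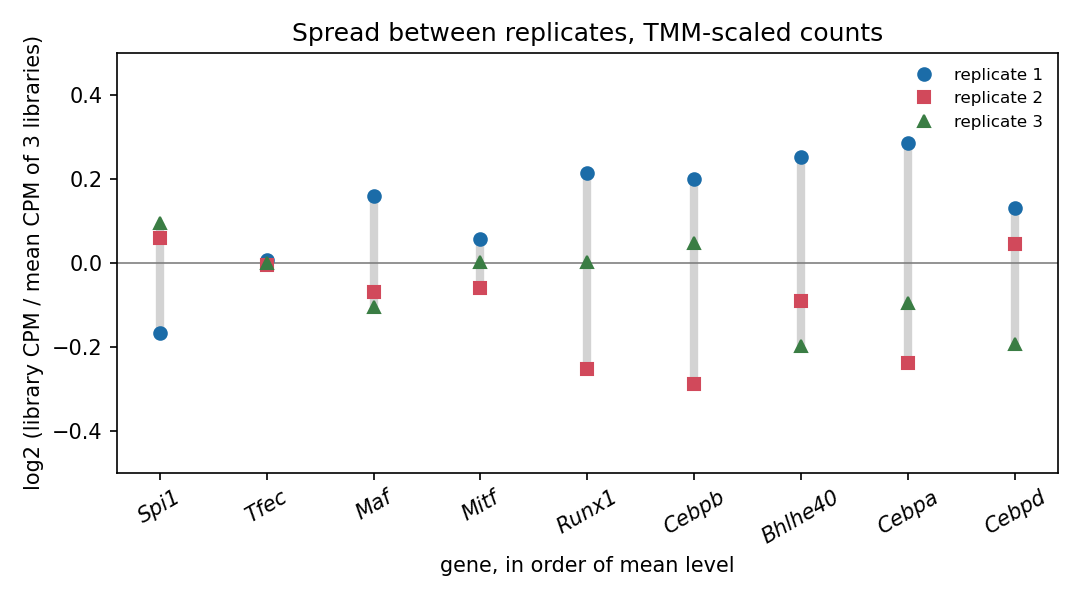
TMM-scaled CPM of each gene in each replicate, as log2 of the ratio to the gene's mean over the 3 libraries, with a grey bar over the range. The 3 points of Tfec coincide near 0, replicate 1 (circles) is the highest for 8 genes, and for Spi1 it is the lowest.

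Replicate 2, the library with low Malat1 and mitochondrial RNA, had the lowest TPM for 8 of the 9 genes, all but Cebpd. Of 8281 detected protein-coding genes, 63.4% were lowest there. Replicate 1 had the highest TPM for 8 of the 9, all but Spi1, and for 63.3% of those genes. After TPM was rescaled to nuclear protein-coding genes, 5 of the 9 were lowest in replicate 2, against 40.2% of the same genes. Replicate 1 was still the highest for 8 of the 9 after rescaling, all but Spi1. The share of all genes highest there after rescaling was not computed. The part of library composition in these levels was not tested further.

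Annotated start sites divide the RNA of several of the 9 genes, and Runx1 and Mitf have start sites that change the first residues of the protein. Runx1 has a distal promoter, from which RUNX1c is made, and a proximal one, from which RUNX1b is made. The first pair of sequences is the 150 bases before the foremost annotated or RefSeq start of each promoter, shown because the counts below divide between them. They are from RefSeq (build GRCm38.p6, minus strand), chr16:92826150-92826299 for the distal and chr16:92697330-92697479 for the proximal promoter. Neither holds a motif of those searched.
Runx1 distal promoter: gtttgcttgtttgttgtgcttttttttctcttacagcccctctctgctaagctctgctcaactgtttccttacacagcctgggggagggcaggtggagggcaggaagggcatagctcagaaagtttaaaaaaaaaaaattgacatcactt
Runx1 proximal promoter: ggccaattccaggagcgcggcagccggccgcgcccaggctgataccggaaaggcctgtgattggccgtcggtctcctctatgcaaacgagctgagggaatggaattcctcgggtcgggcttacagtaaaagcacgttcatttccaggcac

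The coding sequences of the transcripts from these promoters begin differently and then run into a common stretch, the part that leads to the DNA-binding Runt domain. The first 90 coding bases are shown from the annotated start codon, with capitals for the bases before the first stretch of 30 bases that the other transcript shares. Runx1-201, from the distal start, encodes 465 residues, and Runx1-202, from the proximal start, 387. Runx1-203, which has the start codon of Runx1-202, encodes 451, so Runx1-202 is also shorter farther along the reading frame.
Runx1-201: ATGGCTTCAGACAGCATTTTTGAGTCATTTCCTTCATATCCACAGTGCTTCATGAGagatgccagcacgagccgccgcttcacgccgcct
Runx1-202: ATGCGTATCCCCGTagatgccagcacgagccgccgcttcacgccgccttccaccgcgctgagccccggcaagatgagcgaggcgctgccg

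Of the groups of start sites, the distal one carried the largest share of Runx1 TPM in the first quantification. Transcripts that start within 500 bases of each other were taken as 1 group, and shares are percentages of the gene's transcript TPM. The distal group (Runx1-201, Runx1-204 and Runx1-207) held 55.5%, 54.1% and 52.1% in replicates 1, 2 and 3, or 53.9% ± 1.68 (SD, n = 3). The proximal group (Runx1-202 and Runx1-206) held 31.1%, 22.5% and 26.6%, a mean of 26.7% ± 4.30 (SD, n = 3). The ranges of the 2 groups did not overlap. Runx1-203, annotated from a start at 92696125 downstream of the proximal one, held 12.5%, 23.1% and 20.4%. It shares its start codon, at 92695753, with Runx1-202. Added to the proximal group, it brought that group to 43.6%, 45.6% and 46.96%, below the distal group in 3 of 3 libraries. In the second quantification the same sum was 41.99%, 51.6% and 52.7%, and the distal group was at 56.7%, 48.1% and 46.3%. With Runx1-204 in the distal group, which form led thus depended on the quantification in replicates 2 and 3. In the second quantification the distal and proximal groups held 50.4% and 24.5%, and by expected counts, which weight long transcripts more, 61.9% and 29.8%. Part of the distal share rests on Runx1-204, a fragment whose annotated reading frame has no stop, with 14.4, 31.9 and 8.98 expected counts. With starts grouped within 100 bases, which sets that transcript apart, the distal group held 43.2%, 44.8% and 47.4%, a mean of 45.2%. That was below the proximal group with Runx1-203 added in replicates 1 and 2, and above it in replicate 3. In the second quantification it held 27.95%, 30.5% and 34.8%, a mean of 31.1%, below the same sum in every library. By expected counts it held 61.7%, above the 37.98% of that sum.

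Mitf has a long row of alternative promoters, each with its own first exon. The first, farthest upstream, gives the broadly expressed MITF-A, and the last gives MITF-M, the form of pigment cells. The 150 bases before the foremost starts, from RefSeq (build GRCm38.p6, plus strand), are chr6:97806902-97807051 for the first and chr6:97991633-97991782 for the last, shown because most Mitf RNA was assigned to the first. Capitals in the first mark a C/EBP motif and, after it, a RUNX motif on the opposite strand, and the last holds none of the motifs searched.
Mitf first promoter: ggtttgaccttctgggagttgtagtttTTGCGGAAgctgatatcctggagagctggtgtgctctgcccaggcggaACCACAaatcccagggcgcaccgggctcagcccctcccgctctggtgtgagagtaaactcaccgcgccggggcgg
Mitf last promoter: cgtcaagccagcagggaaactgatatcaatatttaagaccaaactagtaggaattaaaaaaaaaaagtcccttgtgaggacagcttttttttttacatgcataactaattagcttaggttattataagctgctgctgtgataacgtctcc

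The coding starts differ in the same way. Mitf-202, from the first start, encodes 526 residues, and all of the 90 bases shown lie within the 352 that precede the first stretch shared with Mitf-201. Mitf-201, from the last start, encodes 419 residues, and capitals mark its first 31 bases, before the stretch shared with Mitf-202.
Mitf-202: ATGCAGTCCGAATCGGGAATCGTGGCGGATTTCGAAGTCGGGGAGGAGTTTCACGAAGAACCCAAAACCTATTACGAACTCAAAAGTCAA
Mitf-201: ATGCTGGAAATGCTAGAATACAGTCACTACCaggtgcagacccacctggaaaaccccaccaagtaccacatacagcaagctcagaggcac

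The first start of Mitf (Mitf-202, Mitf-206 and Mitf-207) held 89.5%, 82.7% and 86.9% of the gene's TPM in replicates 1, 2 and 3, or 86.4% ± 3.43 (SD, n = 3). Mitf-202 alone held 81.7% ± 1.72 (SD, n = 3). The last group (Mitf-201, Mitf-205 and Mitf-208) held 9.40%, 16.3% and 11.8%, a mean of 12.5% ± 3.48 (SD, n = 3). Nearly all of that was Mitf-208, whose annotation is a coding sequence of 357 residues with no untranslated ends, at 86.1, 515 and 207 expected counts. Mitf-201, the transcript of the pigment-cell form, had 0 expected counts in every library. In the second quantification Mitf-201 was at 0.464, 0.0908 and 0.185 TPM, and the first group held 81.2% and the last 10.4%. By expected counts the last group held 2.70% and the first 96.8%. The middle transcript Mitf-203 held 0.126% of TPM in the first quantification and 6.49% in the second, so its share depended on the quantification.

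Spi1 and Maf also have more than 1 start. Spi1-201, which encodes the whole protein of 272 residues from the main start at 91096096, held 78.5%, 83.7% and 83.6% of Spi1 TPM, a mean of 81.9% ± 3.01 (SD, n = 3). An upstream start held 11.5%, 8.60% and 7.51%, and Spi1-203, a short transcript of 402 bases, 10.09%, 7.70% and 8.85%. By expected counts Spi1-201 held 96.7%, and in the second quantification 73.4% of TPM. The 3 measures thus agree that Spi1-201 leads, and differ on how much the short transcripts add. Maf-202, with a transcript of 6360 bases and 370 residues, held 79.1%, 76.6% and 82.1% of Maf TPM. Maf-201, which is spliced and ends farther downstream with a reading frame of 380 residues, held 20.95%, 23.4% and 17.9%. The second quantification gave Maf-202 80.5% and expected counts 88.6%.

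For the other genes 1 start carried nearly all RNA. The main start of Tfec held 97.3% ± 1.94 of TPM and that of Bhlhe40 99.5% ± 0.458 (SD, n = 3 each). Cebpb has 1 transcript, and both transcripts of Cebpa begin within 500 bases. Cebpa-202, annotated with a shorter reading frame of 159 residues against 359 for Cebpa-201, held 8.80%, 17.7% and 8.91% of Cebpa TPM, highest in replicate 2. C/EBPα and C/EBPβ are also made as long and short proteins from a single mRNA by choice of start codon, which RNA levels do not measure. Cebpd was read from Cebpd-201 alone, apart from 1 count of Cebpd-202 in replicate 2.

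**Figure D4:**
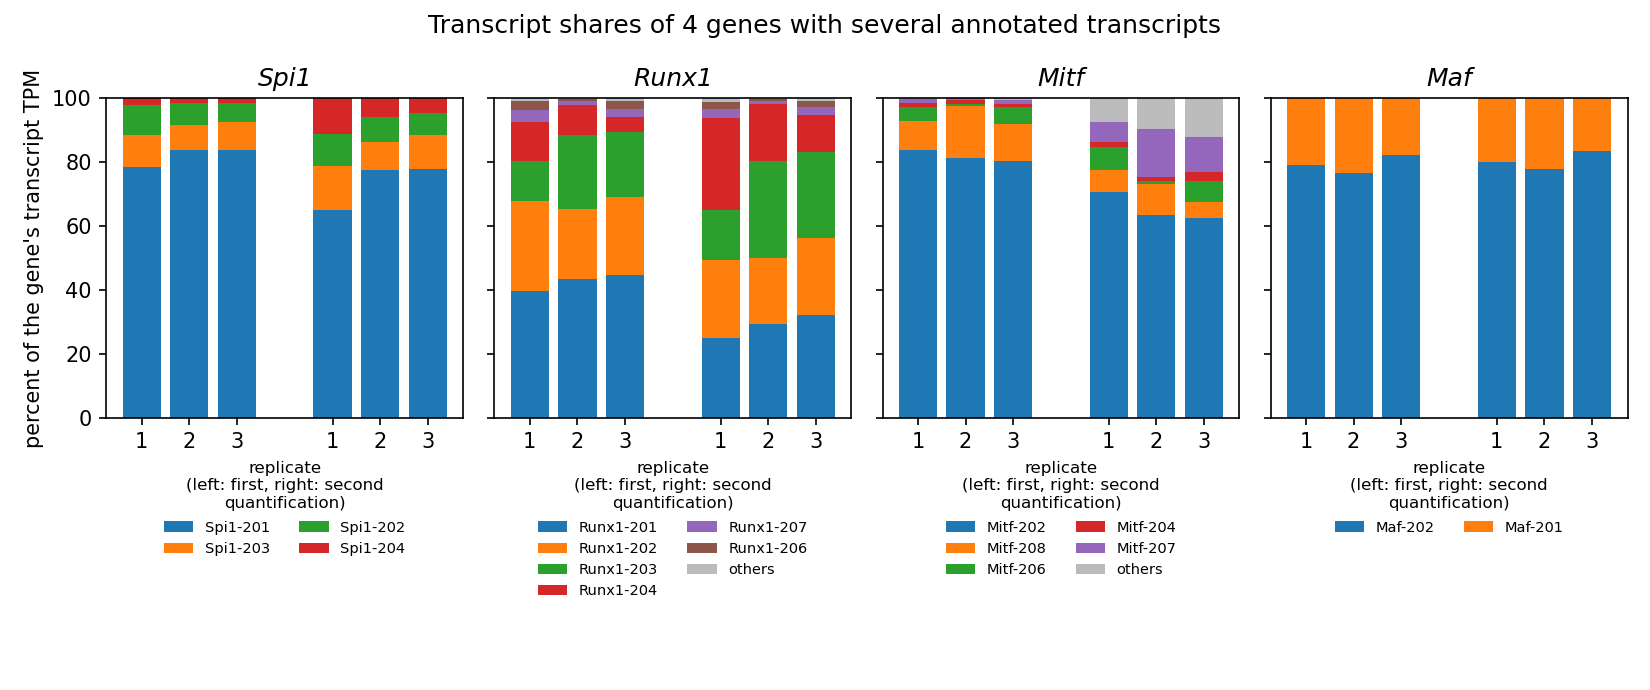
Share of each transcript in the TPM of Spi1, Runx1, Mitf and Maf, in percent, for replicates 1, 2 and 3 of the first (left bars) and second (right bars) quantification; transcripts under 1% on average are grouped as others. The leading transcript is the same in all bars for Spi1, Mitf and Maf, and the Runx1 and Mitf shares differ most between quantifications.

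The 5 motifs were searched on both strands of the 250 bases before each start in the RefSeq promoter table, which matched 5 of the 9 genes (Cebpa, Cebpb, Runx1, Mitf and Tfec). The E-box CACGTG, bound by MITF, TFEC and BHLHE40, began at -71 of the distal Runx1 start of RefSeq, at 92826145. That is inside Runx1-201, whose annotated start at 92826149 lies farther upstream, so the match is not upstream of the leading distal transcript. The motif is in 6.02% of 32851 windows in the table. The first Mitf promoter held the C/EBP motif TTGCNNAA at -129 (9.56% of windows) and the RUNX motif TGTGGT at -81 (14.0%). The MAF site TGCTGAC (3.81% of windows) began at -222 of the first Mitf start and at -236 of the middle one, and the RUNX motif at -221 of the Tfec start. The PU.1 motif GAGGAAG, in 10.6% of windows, was in none of these. No binding was measured, and a match of letters is not a site.

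Retained-intron transcripts, which keep an intron and are mostly nuclear, were a small part of the RNA of 4 genes that have one annotated. For Mitf they took 4.63%, 0.804% and 5.39% of TPM in replicates 1, 2 and 3. For Tfec they took 3.11%, 0.627% and 2.52%, and for Runx1 2.79%, 0.767% and 2.49%. Replicate 2 was the lowest in these 3 of the 4, and Bhlhe40 was the exception at 0.906%, 0.986% and 0.576%. Of 4360 detected protein-coding genes with a mean share of at least 0.5%, 69.4% were lowest in replicate 2, and their median share was 4.01%, 1.68% and 4.36%. The difference seen in Mitf, Tfec and Runx1 therefore ran through the library as a whole, in which Malat1 and Neat1, both nuclear, were also low (Neat1 at 42.6, 14.4 and 50.8 TPM). Whether nuclear RNA in the fraction sets these shares was not tested.

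**Figure D5:**
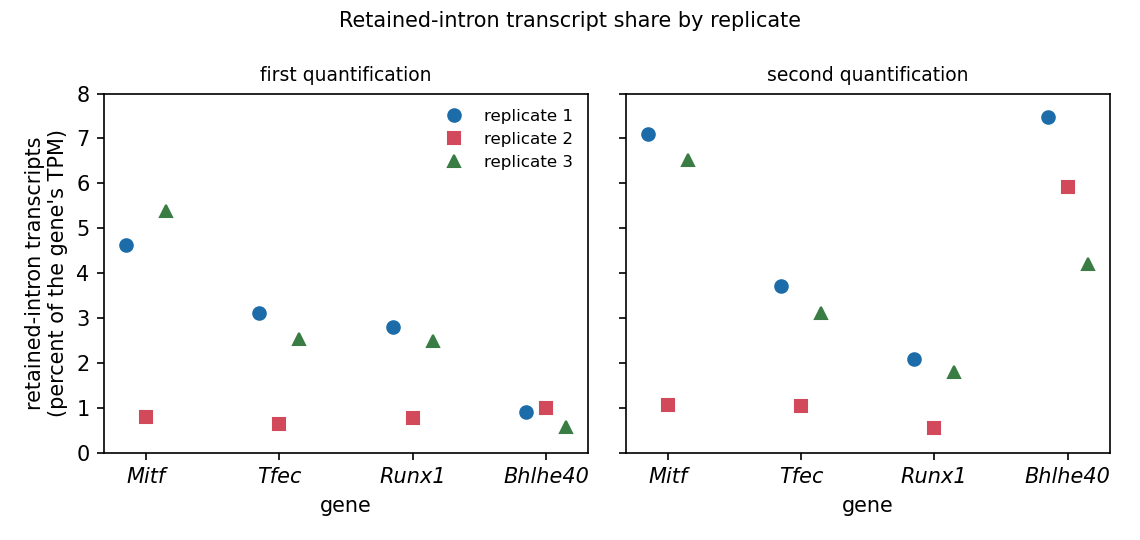
Retained-intron transcripts as a percent of the gene's TPM in each replicate, for the 4 genes with such a transcript, in both quantifications. Replicate 2 (squares) lies under 1.1% for Mitf, Tfec and Runx1 in both panels, below replicates 1 and 3, and Bhlhe40 does not share that order.

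Genes that work beside the 9 factors were present at a broad range of levels. Of 15 partners and other macrophage regulators, 14 were detected, beside 37.6% of all nuclear protein-coding genes. The highest were Id2, an inhibitor that lacks a DNA-binding region, at 135 ± 38.97 TPM, Zeb2, which maintains macrophage identity across tissues, at 110.2 ± 19.2 TPM, and the AP-1 subunit Junb at 90.2 ± 15.6 TPM (SD, n = 3 each). The lowest were Irf4, a partner of PU.1 in B cells and dendritic cells, at 1.29 ± 0.171 TPM, and Klf4, a monocyte factor, at 0.653 ± 0.0723 TPM (SD, n = 3 each), which was the one not detected. Of 17 regulators of other lineages, 2 were detected: Nfatc1, the osteoclast regulator, at 6.90 ± 0.645 TPM and Tal1, the erythroid and megakaryocytic factor, at 2.58 ± 0.272 TPM (SD, n = 3 each). The next, Batf3 of dendritic cells, was at 1.44, 0.75 and 1.15 TPM. Eomes, a factor of lymphocytes, had 0 expected counts in every library, which allows up to the limits given above.

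Genes described as targets of PU.1, the C/EBP factors, MITF and its relatives, MAF and BHLHE40 were mostly detected. Over all nuclear protein-coding genes the share detected was 37.6%, but these lists were chosen with earlier results of these data known. No list of RUNX1 targets was used. All 15 listed for PU.1 were, with a median of 209.9 TPM, led by Ctss at 732 ± 85.7, Mpeg1 at 620.0 ± 51.4 and Tyrobp at 605.6 ± 33.8 TPM, and with Tlr4 at 13.1 ± 3.76 and Btk at 8.45 ± 0.827 TPM as the lowest (SD, n = 3 each). Of these 15, 9 are also among the macrophage markers above. For the C/EBP factors 8 of 11 were detected, led by Lyz2, the chemokine Ccl3 at 856 ± 218 and Il12b at 90.7 ± 15.97 TPM (SD, n = 3 each). Ptx3, at 0.157 ± 0.0462, and Cebpe were the lowest. For MITF and its relatives 12 of 14 were detected, led by the lysosomal protease Ctsd at 2405 ± 41.3, Gpnmb at 1967 ± 70.2 and Lamp1 at 539 ± 38.1 TPM (SD, n = 3 each). The 2 not detected were the osteoclast genes Ctsk, at 0.663 ± 0.162, and Oscar, at 0.0400 ± 0.0608 TPM (SD, n = 3 each). Acp5, another osteoclast marker of this list, was detected, at 19.5 ± 6.2 TPM (SD, n = 3). For MAF 7 of 8 were detected, led by the complement genes C1qb at 655 ± 30.2 and C1qc at 422 ± 33.0 and by Mrc1 at 110.5 ± 13.4 TPM, and Cd163, the haemoglobin scavenger receptor, was not, at 0.310 ± 0.0600 TPM (SD, n = 3 each). Of the 3 listed for BHLHE40, Il10 was at 22.7 ± 2.97 TPM, Maf is given above, and Ccr2 was at 1.66, 0.81 and 1.05 TPM. These levels are of 1 condition and do not show that any factor controls them.

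Among the 104 other genes of these lists, the one whose log2(TPM + 1) was nearest over the 3 libraries was taken for each factor. The nearest pairs were Maf with Fcgr1, the high-affinity IgG receptor, with a root mean square difference of 0.0646, and Mitf with Ikzf1, at 0.0933. Bhlhe40 was nearest to its relative Bhlhe41 (0.154), and Runx1 and Cebpb were both nearest to Etv6 (0.162 and 0.172). For Cebpa it was Folr2 (0.213), for Cebpd Tfeb (0.220), for Tfec C1qa (0.235) and for Spi1 Junb (0.287). Likeness here means a like level in 3 libraries of 1 condition.

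Some of the 9 genes overlap others on the opposite strand. Tmem189, which extends over Cebpb, was at 32.7, 28.4 and 30.8 TPM, above Cebpb in every library. Spidr, which extends over Cebpd, was at 1.35, 1.19 and 1.22 TPM, below Cebpd in every library. Antisense genes at Runx1, Cebpa and Bhlhe40 had at most 5 expected counts in any library, and the processed pseudogene Gm15531 within Mitf at most 7. Without a stated strand setting, the levels of Cebpb, Cebpd and Maf carry the uncertainty of how reads in the overlaps were assigned.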

How the data were processed

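RNA of the cytosolic fraction, 1 group of 3 libraries, was quantified by the authors in 3 tables a library. Gene and transcript tables follow the RSEM column layout, and another transcript table, called the second quantification, follows that of kallisto. Per the file headers, the authors deposited expected counts, TPM, FPKM (which also divides by length and depth), percent values of each transcript within its gene, effective lengths, and lower and upper bounds of TPM, a signal estimated beside it by the authors. The confidence level of the bounds is not stated, and they were left out. Values refer to mm10 and GENCODE M21, per the labels and the deposited listings. No source used here names the aligner, its version or the strand setting. TPM covers 81881 features, tRNA and other non-gene features included. Nuclear protein-coding genes took 23.5%, 21.1% and 22.0% of TPM in replicates 1, 2 and 3. Levels here, and the threshold of 1 TPM, are therefore not those of a scale that covers only such genes, where each value would be higher.

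The 9 genes, the lists and the tests were chosen with earlier results of these data known. The genes named are the 9, up to 3 highest and 2 lowest of each list by mean TPM, and transcripts with at least 10% of a gene's TPM. Spic, Batf3, the marker examples, the overlapping genes and smaller transcripts were added with their values in view. Some genes of the lists are not reported here. Expected counts were rounded to whole numbers. Dispersion was tested with a Poisson chi-square on TMM-scaled library sizes, adjusted by Benjamini-Hochberg at 0.05. The coefficient of variation came from edgeR 4.0.16 (R 4.3.3), and both steps were tested on simulated data. Other values used Python 3.11.15, numpy 2.4.6 and pandas 2.3.3. Coding lengths come from GENCODE M21 transcripts and promoters from RefSeq (GRCm38.p6). Alternatives were other thresholds and pseudocounts, FPKM, rescaling to protein-coding genes, RLE factors, no count filter, the second quantification, expected counts and leaving out each replicate. The group of genes with at least 500 counts was chosen after seeing the data. At most 0.0345% of detected genes had identical counts in any 2 libraries, so none is a copy of another.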

Additional observations from a re-analysis of the deposited data

How the results depend on the processing

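Levels of the 9 genes moved by less than 1 SD when TPM was rescaled to nuclear protein-coding genes or any replicate was left out. That was fixed in advance for a replicate left out: with 3 libraries the mean cannot move by 1 SD. The rescaling kept the mean share of such genes, so it could move the means only little. All 9 were lower in the second quantification, by more than 1 SD, and higher in FPKM, which is another unit. The median of the 9 was 28.5 in FPKM and 7.36 TPM in the second quantification. All 9 were detected at a threshold of 0.5 TPM, and 7 at 5 TPM, where Cebpa and Cebpd fell below. The number of genes that varied beyond counting error was 8 with RLE factors and 7 with any 1 replicate left out, and over all genes the share called was then 37.9% to 49.5%. Their median coefficient of variation was 0.115 over protein-coding genes only and 0.102 to 0.138 with a replicate left out. With a pseudocount of 0.1, log2 differences were 1.73 for Cebpb minus Cebpa, -1.06 for Cebpd minus Cebpa, 2.79 for Cebpb minus Cebpd and 1.67 for Tfec minus Mitf. In the second quantification they were 1.26, -0.61, 1.87 and 1.42, and 0.33 for Runx1 minus Cbfb, a table with lower values throughout. Tfec minus Mitf was 1.64 in FPKM. With a replicate left out, Bhlhe40 minus Bhlhe41 ran from -0.099 to 0.086 and changed sign, at 0.086 without replicate 3, and the other differences kept theirs, Runx1 minus Cbfb at 0.033 without replicate 1. Start-site shares were 50.4% (second quantification), 61.9% (expected counts) and 45.2% (starts within 100 bases) for the distal Runx1 group, and 45.4% for the proximal group with Runx1-203 added by its start codon, a grouping chosen after seeing the data. For the first Mitf group they were 81.2% and 96.8%, and for Spi1-201 73.4% and 96.7%, in the second quantification and by expected counts, and for the last Mitf group 2.70% by expected counts. Expected counts are not divided by length, so short transcripts weigh less. Other causes were not tested. No paired analysis was possible because there is only 1 group. Depth limits short or rare transcripts most, such as Runx1-204 with 8.98 to 31.9 counts.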
